A study of Mus musculus with 5 samples.

Results

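Tissue recovered 2 weeks after transplantation of a kidney bud was set against the kidney of newborn mice (postnatal day 0, P0), with 1 one-colour microarray for each. Both came from C57BL/6 mice, as did the other 3 arrays of the series, namely an embryonic kidney (E13.5), an 8-week kidney and a transplant taken out after 4 weeks. The series title speaks of organ buds that condense through mesenchymal cells. The make-up of the buds, the host, the site of transplantation, the sex of the animals and the number of animals behind each array were not stated in the labels read for this work. The genes compared were those whose signal was well above background on either array. These were 18361 of the 24563 genes on the array, of which 16411 were above background on both arrays, 1409 on the transplant array only and 541 on the P0 array only.

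A level below is the log2 of a gene's signal over its array's 75th percentile, and a difference is the transplant's level minus that of the P0 kidney, so that a log2 difference of 1 is 2-fold. Where a gene was above background on 1 array only, the fold is a bound and is written "at least". Counts within 2-fold include 5 list members whose bound is under 2-fold (Reln, Cd3g, Cyp4a14, Sp7 and Epb42), which may differ by more. With 1 array a group there is no replicate check and no p-value, and every value describes these 2 arrays. Repeated spots of a probe differed by a median SD of 0.0517 log2 units on the transplant array and 0.0530 on the P0 array, which covers spot error only. The transplant lay on slide 1 with the E13.5 kidney, and the P0 kidney on slide 2 with the other 2 arrays, so slide and tissue cannot be told apart. Of Y-linked genes, Ddx3y and Eif2s3y were not well above background on the P0 array and were at least 24.4-fold and 38.2-fold higher in the transplant. Xist, made from the inactive X chromosome, was above background on both arrays, at -0.93 and -1.60, so the transplant array held both Xist and Y-linked RNA.

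The kidney filters blood in glomeruli, whose filter is built by podocytes on a shared basement membrane. The filtrate then passes along the proximal tubule, which reclaims most solutes, the loop of Henle, the distal tubule and the collecting duct. In the fetal kidney, nephron progenitors around the tips of the branching ureteric bud supply new nephrons, and in mice this goes on until shortly after birth.

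Of the 3 kidney arrays, P0 was the closest to the 2-week transplant. Over the 19383 genes above background on any array, the median absolute log2 difference was 0.58 to P0, 0.84 to E13.5 and 0.92 to the 8-week kidney. Spearman's rho across genes, which are not independent replicates, was 0.918, 0.866 and 0.831 in that order. Against P0, 2832 genes (15.4%) were at least 2-fold higher and 2170 (11.8%) at least 2-fold lower, and 1256 (6.84%) were at least 4-fold higher and 620 (3.38%) at least 4-fold lower. The median difference over all 18361 genes was -0.07. The gene lists below are small, and their counts at 2-fold are to be read beside the 15.4% and 11.8% of all genes. Higher genes made up 67.0% of those at least 4-fold apart, or 53.3% (1003 higher, 878 lower) with the arrays scaled on the spiked-in control RNA, which moved the median of all genes to -0.36. With normexp background correction the counts were 755 higher and 332 lower.

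Of the 1256 genes at least 4-fold higher than at P0, 1129 (89.9%) lay above all 3 kidney arrays by measured level, while 179 (28.9%) of the 620 lower genes lay below all 3. By measured level, most of the higher genes were thus outside the range of the kidney arrays, and most of the lower ones were inside it. The genes were chosen by their distance from P0, so their side of P0 was set beforehand. Bounds made up 384 of the higher and 114 of the lower genes, and levels under background do not order the arrays. The same shares over all genes were not computed. The plot of levels on the 2 arrays shows both sets.

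**Figure D1:**
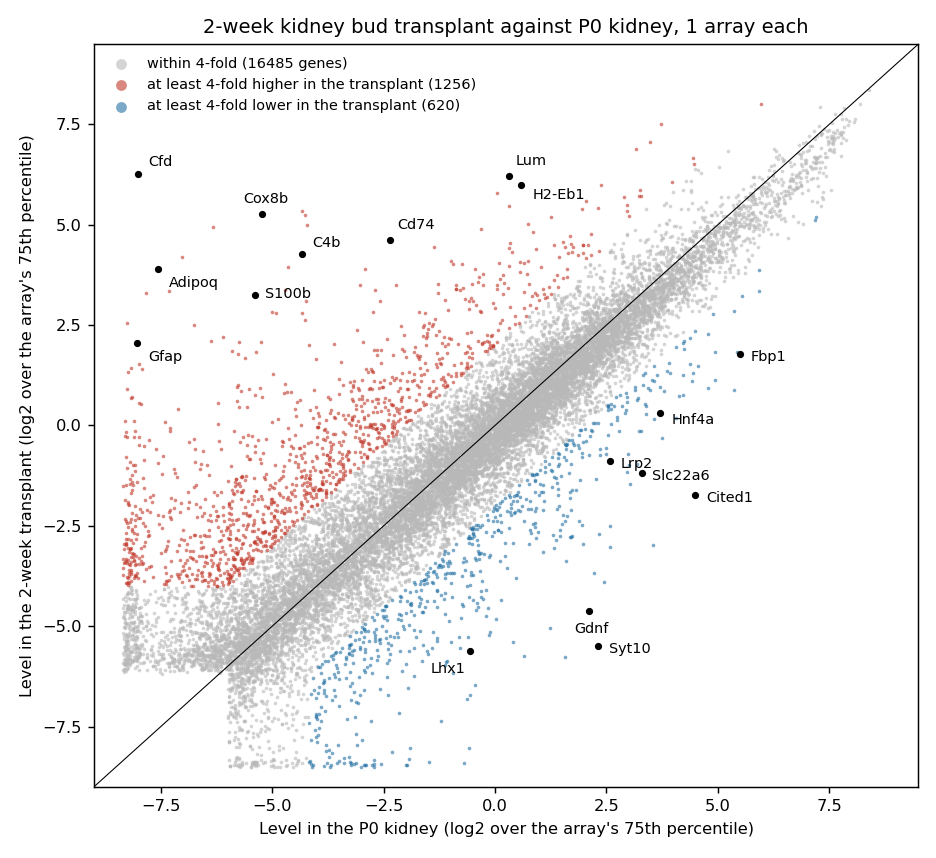
Level of each of 18361 genes in the P0 kidney (x axis) and the 2-week transplant (y axis), in log2 over the array's 75th percentile, with 1 array each and genes not above background on 1 array drawn at their measured level. Red dots mark the 1256 genes at least 4-fold higher in the transplant, blue dots the 620 at least 4-fold lower and black dots named genes, and the line marks equal levels.

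Podocyte genes were mostly higher in the transplant, beside 15.4% of all genes at least 2-fold higher. Of 14, 9 were at least 2-fold higher, 4 were within 2-fold and 1 was lower, with a median difference of 1.32. Nphs1 (nephrin), the adhesion protein that spans the slit between podocyte feet, had a level of -2.16 in the P0 kidney and -0.33 in the transplant, 3.56-fold higher. Other filter genes ranged from no difference to a larger one. The adaptor Cd2ap was 1.11-fold lower and the slit protein Kirrel 1.24-fold higher. The sialomucin Podxl was 3.13-fold, the phosphatase Ptpro 4.07-fold and Thsd7a 5.60-fold higher, and the actin regulator Synpo was 4.54-fold higher, although its probes gave differences from 0.04 to 2.18. Among transcription factors of the list, Tcf21 and Foxc2 were within 2-fold, and Wt1, which nephron progenitors also express, was 2.41-fold lower (4.15 and 2.88). For 11 of the 14 genes the transplant lay above both the E13.5 and the P0 kidney.

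Of 12 glomerular basement membrane genes 8 were within 2-fold, 3 were higher and 1 was lower. In the mature membrane, type IV collagen chains 3, 4 and 5 and laminin beta 2 replace fetal chains. Col4a3 had a level of -3.79 at P0 and -1.78 in the transplant, 4.05-fold higher, and Lamb2 was 2.42-fold higher (0.44 and 1.72). Lama1, a laminin chain of immature membranes, was 4.58-fold lower (3.14 and 0.95). Its level was 1.74 in the E13.5 and 2.26 in the 8-week kidney, so on these arrays it was not lower in the oldest kidney than in the embryonic one. The other 9 genes of the list were at most 2.03-fold apart. Among them were Col4a1 (1.02-fold lower), Col4a4 (1.30-fold higher), Col4a5 (1.45-fold higher) and the laminin chain Lama5 (1.62-fold lower). The median over the 12 genes was 0.15, and -0.14 with the arrays scaled on the spiked-in controls.

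The proximal tubule stood lowest among the nephron segments. Of 22 genes for transporters and receptors, 14 were at least 2-fold lower in the transplant, 8 were within 2-fold and none was 2-fold higher, with a median of -2.18. Of 21 enzyme genes of this segment, 17 were lower, 3 were within 2-fold and 1 was higher, with a median of -2.59. The endocytic receptors that retrieve filtered protein were lower together: Lrp2 (megalin) had levels of 2.57 and -0.88, 10.9-fold lower, Cubn (cubilin) was 10.4-fold and its partner Amn 12.2-fold lower. Dab2, their adaptor, was 1.66-fold higher, with probes from -3.64 to 0.73.

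Among the transporters the differences ran from 22.2-fold lower to 1.66-fold higher. Slc22a6, which takes up organic anions, had levels of 3.29 and -1.18 and was 22.2-fold lower. Slc3a1, a subunit of the cystine transporter, was 14.2-fold, the basolateral glucose carrier Slc2a2 12.3-fold, the urate exchanger Slc22a12 11.9-fold and the phosphate transporter Slc34a1 7.52-fold lower. Other carriers of the same segment were close to the P0 level. The sulfate transporter Slc13a1 was 1.01-fold, the water channel Aqp1 1.38-fold, the bicarbonate transporter Slc4a4 1.43-fold and the glucose transporter Slc5a2 1.62-fold lower. Outside the lists, Slco1a6, an organic anion carrier, was the second largest decrease of all genes measured on both arrays, 162-fold lower (1.57 and -5.77), and Slc22a19 was 48.7-fold lower (2.59 and -3.02). Slc22, Slco and Hsd3b genes have close paralogs that can share probe sequence.

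Of the enzymes, Hsd3b4 was 22.4-fold lower (5.36 and 0.88, with probes from -4.48 to -1.57) and Ggt1, which breaks down glutathione at the brush border, was 21.6-fold lower (1.96 and -2.48). Cyp27b1, which activates vitamin D, was 18.2-fold lower and Miox (inositol breakdown) 8.59-fold lower. Fbp1, of gluconeogenesis, had levels of 5.49 and 1.79, a log2 difference of -3.70. Pck1, another gluconeogenic enzyme, went the other way by 1.44-fold, and Cyp2e1 was 14.8-fold higher (-1.42 and 2.47). Fat expresses both of these too. Summed over each list, linear signal relative to the 75th percentile was 87.4 at P0 and 32.5 in the transplant for the transporters, and 282 and 53.7 for the enzymes. In such tissue RNA, fewer cells of a type and less RNA per cell cannot be told apart.

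The lower tubule genes did not return to the embryonic level. By measured level, 21 of 22 transporter genes and 19 of 21 enzyme genes lay between the E13.5 and the P0 kidney, and none reached the 8-week level. At E13.5, 8 and 12 of them were above background. Slc5a1, at -5.98 in the transplant, was under the lowest level above background at E13.5 (-5.90), so the order of these arrays is not known for it. Lrp2, for example, was at -2.84 in the E13.5, 2.57 in the P0 and 5.64 in the 8-week kidney, and at -0.88 in the transplant. Fbp1 was at -3.81, 5.49 and 7.93 in the kidneys and at 1.79 in the transplant.

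Transcription factors of the tubule were lower as well. Of 13 compared, 9 were at least 2-fold lower and 1 higher, with a median of -1.45. Hnf4a, a regulator of proximal tubule genes, had levels of 3.71 and 0.30, 10.6-fold lower. Irx1 and Irx2, of the intermediate nephron, were 12.8-fold and 8.63-fold lower. Ppara, a lipid sensor that fat and liver also use, was the exception at 3.28-fold higher (-1.42 and 0.29).

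In the loop of Henle, 6 of 11 genes were at least 2-fold lower and none 2-fold higher, with a median of -1.44. Umod (uromodulin), the most abundant urinary protein, was 4.78-fold lower (2.97 and 0.71), the salt transporter Slc12a1 2.71-fold lower and the potassium channel Kcnj1 equal within 1.01-fold. Egf, which the kidney arrays show at -5.04 at P0 and 4.63 at 8 weeks, was at -4.16 in the transplant.

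Beyond the loop, the segments differed from each other. The distal convoluted and connecting tubule had 2 genes higher, 6 within 2-fold and 2 lower (median -0.45). Klk1 (tissue kallikrein) was 16.5-fold higher (-0.53 and 3.52) and the magnesium channel Trpm6 5.65-fold higher, while the calcium-binding proteins Pvalb and Calb1 were 7.27-fold and 6.21-fold lower. Collecting duct principal cells had 6 of 10 genes lower and none higher (median -1.34). Their vasopressin-regulated water channel Aqp2 had levels of 4.12 and 0.74, 10.4-fold lower, and the vasopressin receptor Avpr2 was 8.99-fold lower (-0.55 and -3.71). The sodium channel subunits Scnn1a and Scnn1g were 2.72-fold and 2.36-fold lower and Aqp4 1.27-fold higher.

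Genes of intercalated cells, the acid-base cells of the same duct, did not follow those of principal cells. Of 10 genes, 4 were at least 2-fold higher, 4 within 2-fold and 2 lower, with a median of 0.43. The chloride-bicarbonate exchanger Slc26a4 (pendrin) was 2.36-fold higher (-1.15 and 0.08) and Slc4a1 and the proton pump subunits Atp6v0d2 and Atp6v1g3 were 2.26-fold to 2.32-fold higher, while the ammonia channel Rhcg and the carbonic anhydrase Car2 were 2.41-fold and 2.28-fold lower. Foxi1, the transcription factor of these cells, was within 2-fold (-0.19 and 0.32). Slc4a1 read highest in the E13.5 kidney (0.61), where Foxi1 was at -3.33, so its level need not follow intercalated cells. The part of other cell types in the levels of this list was not tested. The difference between the principal and intercalated lists was not tested.

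Hormone genes of the kidney were mostly near the P0 level, with 6 of 8 compared within 2-fold. Ren1 (renin) had levels of 0.48 and 0.11, and Kl (klotho), a distal tubule protein, was 6.32-fold lower (0.77 and -1.89). Of 11 drug and steroid metabolism genes 3 were higher, 4 within 2-fold and 4 lower, beside 15.4% of all genes higher and 11.8% lower. Gstt1 was 17.7-fold and Cyp4b1 4.69-fold higher, while Cyp2d26 was 8.76-fold lower and Sult1d1 had a log2 difference of -3.45.

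**Figure D2:**
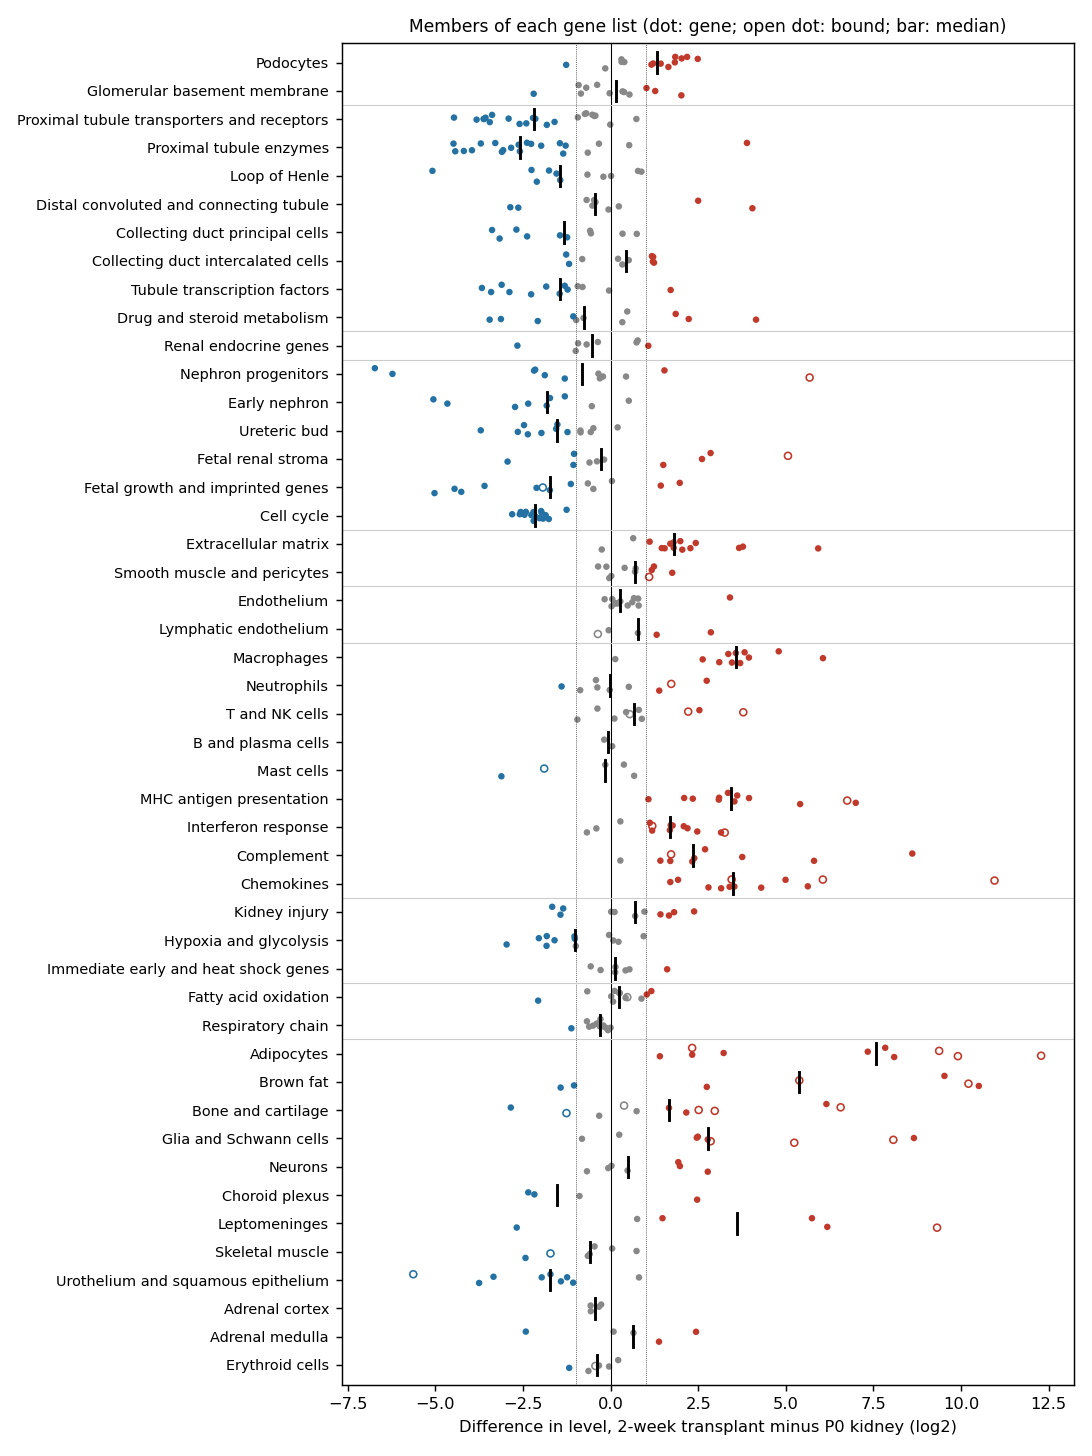
Difference in level (2-week transplant minus P0 kidney, log2, x axis) of every compared member of 47 gene lists (y axis), with 1 dot per gene, open dots for bounds and a black bar at the list's median. Red and blue dots are at least 2-fold higher and lower. Proximal tubule, early nephron, ureteric bud and cell cycle genes lie mostly to the left, and matrix, macrophage, antigen presentation and fat genes mostly to the right.

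Of the genes of the nephrogenic zone, Gdnf and Cited1 were among the 15 largest decreases measured on both arrays. Of 12 nephron progenitor genes 6 were at least 2-fold lower, 4 within 2-fold and 2 higher, with a median of -0.83. Gdnf, the signal by which progenitors make the ureteric bud branch, had levels of 2.10 and -4.63, 106-fold lower, and Cited1, which marks uncommitted progenitors, had levels of 4.49 and -1.73, 74.9-fold lower. Other markers of the same cells differed less. Six2, which holds progenitors in the self-renewing state, had levels of 3.45 and 2.14, 2.48-fold lower, Eya1 was within 1.16-fold and Meox1 within 1.27-fold. The Eya1 probe read highest in the 8-week kidney (6.14), where Six2 and Gdnf were not above background, so its level need not follow progenitors. Osr1, which is also expressed outside the kidney, was 2.90-fold higher.

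The genes of the next steps were lower with Gdnf and Cited1. Of 9 early nephron genes 7 were lower and none higher, with a median of -1.82. Lhx1, needed for the renal vesicle, had levels of -0.56 and -5.62, 33.3-fold lower, with a second probe at -2.69, and Fgf8 was 25.3-fold lower (-0.60 and -5.26). Wnt4, which drives the change to an epithelium, was 6.62-fold lower but remained at 0.96. Of 13 ureteric bud genes 8 were lower, 5 within 2-fold and none higher (median -1.52). Wnt11, made at the bud tips, was 13.1-fold lower (0.75 and -2.96) and Wnt9b and Etv4 were 3.93-fold and 5.14-fold lower, while Ret, the Gdnf receptor, was within 1.41-fold. For 11 of these 13 genes and 8 of the 9 early nephron genes the transplant lay below both the E13.5 and the P0 kidney.

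All 16 cell cycle genes were lower, from 2.39-fold (Pcna, the replication clamp) to 7.01-fold (Bub1, of the spindle checkpoint), with a median of -2.17. This is 100% of the list beside 11.8% of all genes. Mki67, the standard marker of cycling cells, had levels of 2.59 and 0.83 (3.39-fold lower), Top2a of 1.01 and -1.45, and Ccnb1 of 2.04 and -0.38. All 16 lay below both younger kidneys, and in the 8-week kidney Mki67 was at -2.90. The letters TTTGAA, the core of a promoter element of cell cycle genes, stood on either strand in the 250 bases before 5 of 13 of these genes and 18.3% of 27025 RefSeq gene starts.

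Fetal growth genes were lower in 8 of 13 cases, with a median of -1.73. The RNA-binding proteins Igf2bp1 and Igf2bp3 were 32.6-fold and 21.9-fold lower, Hmga2 was 19.2-fold lower (0.47 and -3.79) and the imprinted Mest 12.1-fold lower (5.44 and 1.84). The growth factor Igf2 was equal within 1.03-fold (0.51 and 0.55), while the neighbouring H19 was 3.32-fold lower. The imprinted Dlk1 and Meg3 were 3.92-fold and 2.70-fold higher. Afp, a plasma protein of fetal life, was 92.1-fold lower (3.55 and -2.97).

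Genes were also grouped by how they differ with kidney age. Of 2359 genes at least 4-fold higher at 8 weeks than at E13.5, 301 (12.8%) were at least 4-fold higher in the transplant than at P0 and 225 (9.54%) at least 4-fold lower, with a median of 0.02 that ranged down to -0.27 under other settings. Genes of both sides lay far out. C4b (390.2-fold), Thrsp (385-fold) and Cd74 (128-fold) were the furthest among the higher ones and belong to complement, fat synthesis and antigen presentation, and Slco1a6, Tmem252 (78.1-fold) and Serpinf2 (59.4-fold) the furthest among the lower ones. Of 2188 genes at least 4-fold lower at 8 weeks than at E13.5, 113 (5.16%) were at least 4-fold higher and 220 (10.1%) lower, with a median of -0.56. Sfrp4 (141-fold) and the matrix gene Lum (60.6-fold) led those that were higher. At the 2-fold threshold, 33.7% of the genes lower at 8 weeks were lower and 13.3% higher, against 20.7% and 25.4% of the genes higher at 8 weeks. The 12449 genes between the classes had a median of -0.07, with 4.51% at least 4-fold higher and 0.90% lower, beside 6.84% and 3.38% of all genes. These classes come from arrays that the difference does not use, but the E13.5 array shares the transplant's slide and the 8-week array that of the P0 kidney.

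**Figure D3:**
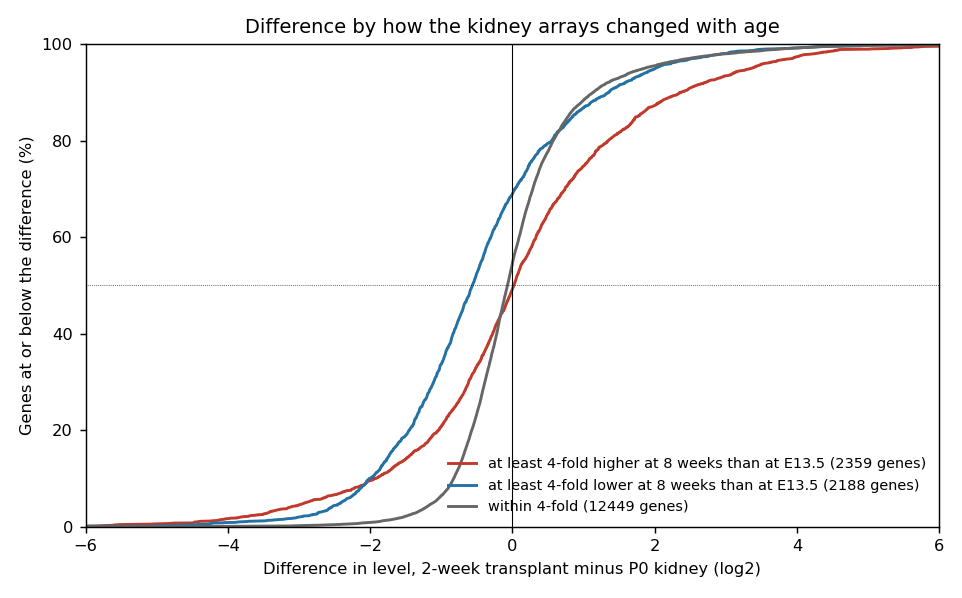
Percent of genes (y axis) at or below each difference in level between the 2-week transplant and the P0 kidney (log2, x axis), for 2359 genes higher and 2188 lower at 8 weeks than at E13.5, by at least 4-fold, and the 12449 others. The curve of the genes lower at 8 weeks lies to the left with a median of -0.56, and that of the genes higher at 8 weeks is the widest.

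Connective tissue genes were higher. Of 15 extracellular matrix genes 13 were at least 2-fold higher and none lower, with a median of 1.80. The small proteoglycans Lum (lumican) and Dcn (decorin) were 60.6-fold (0.30 and 6.22) and 13.7-fold higher (3.73 and 7.51), the protease inhibitor Timp1 12.7-fold, Col6a1 5.38-fold, and the main fibrillar collagens Col1a1, Col1a2 and Col3a1 3.47-fold to 4.13-fold higher. Their summed linear signal was 316 at P0 and 1057 in the transplant, where 14 of the 15 lay above both younger kidneys. Ltbp2, a matrix protein outside the list, was 162-fold higher (-4.25 and 3.09). Smooth muscle and pericyte genes were 2-fold higher in 4 of 11 cases (median 0.70), beside 15.4% of all genes. Acta2 was the same within 1.01-fold.

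Of 13 endothelial genes 12 were within 2-fold, with a median of 0.28, or -0.02 with the arrays scaled on the spiked-in controls. Pecam1 had levels of -1.45 and -0.83, Cdh5 (VE-cadherin) of 0.91 and 1.71, Kdr (a VEGF receptor) of 2.34 and 2.17 and Ehd3, which glomerular endothelium expresses, of 1.33 and 2.12. The exception was Vwf (von Willebrand factor), found in larger vessels, which was 10.6-fold higher (-1.68 and 1.72, with probes from 2.24 to 3.41). Of 10 fetal stroma genes 4 were higher, 3 within 2-fold and 3 lower, with a median of -0.29 that was 0.15 after quantile normalization. Smoc2 and Dkk2 were 6.09-fold and 7.22-fold higher, Tbx18, of the ureter mesenchyme, at least 33.4-fold higher, and Foxd1 2.83-fold higher. Aldh1a2, which makes retinoic acid, was 7.68-fold, the retinoic acid receptor Rarb 2.06-fold and Ntn1 2.09-fold lower.

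Macrophage genes were higher in 10 of 11 cases, all 10 by at least 4-fold, with a median of 3.57. Lyz2 (lysozyme) had levels of -2.69 and 3.37, 66.7-fold higher, Mpeg1 of -1.28 and 3.52 (27.8-fold), Cd68 of -1.06 and 2.89 (15.4-fold) and Adgre1 (a macrophage receptor) of -1.52 and 2.30 (14.2-fold). The Fc receptor Fcgr1 was the exception at 1.10-fold. Their summed linear signal was 9.43 at P0 and 101 in the transplant. Of 9 neutrophil genes 3 were higher, 5 within 2-fold and 1 lower, beside 15.4% of all genes higher and 11.8% lower. Mpo was 6.69-fold, Camp 2.62-fold and Cxcr2 at least 3.32-fold higher, Ngp was 2.64-fold lower, and S100a8 was at 0.35 and 0.32. Of the B cell list, 5 of 7 genes of B and plasma cells were not above background on either array. Of 10 T and NK cell genes 3 were higher, Gzma (5.79-fold), Cd2 (at least 13.8-fold) and Ncr1 (at least 4.64-fold), 6 were within 2-fold, among them Cd3e (-0.65 and -0.54), and Cd3g had a bound of at least 1.46-fold higher.

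Antigen presentation genes were all higher. Of 12 MHC genes, 11 were at least 4-fold higher and the remaining one, the regulator Ciita, 2.11-fold higher, with a median of 3.44, beside 6.84% of all genes at least 4-fold higher. Their summed linear signal was 31.3 at P0, 325 in the transplant and 124 in the 8-week kidney, so it was above P0 in the older kidney too. The class II chaperone Cd74 had levels of -2.37 and 4.63, 128-fold higher, H2-Eb1 of 0.59 and 6.00 (42.4-fold), and H2-Aa was at least 108-fold higher (0.96 in the transplant). Of class I, H2-D1 was 15.4-fold, H2-K1 11.6-fold and B2m, its light chain, 4.28-fold higher (3.97 and 6.07), as were the peptide transporter Tap2 (8.49-fold) and the immunoproteasome subunits Psmb8 and Psmb9 (8.54-fold and 10.2-fold). Most cells carry class I, and class II is found on macrophages, dendritic and B cells.

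Chemokines and complement were higher as well. All 12 chemokines were at least 2-fold and 10 at least 4-fold higher (median 3.49). Ccl8 was not above background at P0 and was at a level of 4.94 in the transplant, at least 1985-fold higher. Ccl5 was 49.4-fold (-3.61 and 2.02), Ccl2 31.8-fold and the interferon-induced Cxcl10 19.7-fold higher (-2.04 and 2.26). Of 10 complement genes 9 were higher (median 2.36), with C4b at -4.34 and 4.27, C3 55.9-fold higher (-1.36 and 4.44) and C2 with a log2 difference of 3.76. The complement list's summed linear signal was 33.7 at P0, 158 in the transplant and 66.4 in the 8-week kidney.

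Interferon response genes were higher in 11 of 14 cases and none was 2-fold lower (median 1.70). Ifit1 had levels of -4.69 and -1.54 (8.88-fold higher), Ifit3 of -1.13 and 0.96 (4.25-fold), Oasl2 of -1.12 and 1.08 (4.57-fold), and Mx1 was at least 9.55-fold higher. Isg15 was 2.17-fold higher, and Ifit2, Rsad2 and Ifi44 were within 2-fold. Xaf1 was 5.55-fold higher on the probe used, but another of its probes gave -5.16. The immune lists share cells and pathways, so their counts are not independent of each other.

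GAAANNGAA, the core of the element that interferon-activated factors bind, was sought on both strands in the 250 bases before each RefSeq gene start. It stood before 6 of 11 interferon response genes (54.5%) and 1 of 8 MHC genes (12.5%), beside 8.18% of all 27025 genes. The 250 bases before the starts of Ifit1 (chr19:34640639-34640888, plus strand, GRCm38.p6), Ifit3 (chr19:34583279-34583528, plus strand) and B2m (chr2:122147437-122147686, plus strand) are shown because these genes were at least 4-fold higher and hold a match on the plus or the minus strand, in capitals. The sequences are RefSeq's, and a match describes the letters only. Ifit1 holds 3 matches, 2 of which overlap, 76 to 109 bases before its start, Ifit3 holds 3 between 94 and 155 bases, and B2m 1 at 131 to 139 bases. Rsad2, which was within 2-fold, holds a match as well. In all, 3 motifs were searched, of which 1 is not reported here.
Ifit1: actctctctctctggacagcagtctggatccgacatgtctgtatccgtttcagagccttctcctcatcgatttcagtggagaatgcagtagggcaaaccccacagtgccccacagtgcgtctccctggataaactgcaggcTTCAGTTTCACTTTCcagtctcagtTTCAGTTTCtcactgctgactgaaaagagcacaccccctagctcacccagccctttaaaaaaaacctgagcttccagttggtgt
Ifit3: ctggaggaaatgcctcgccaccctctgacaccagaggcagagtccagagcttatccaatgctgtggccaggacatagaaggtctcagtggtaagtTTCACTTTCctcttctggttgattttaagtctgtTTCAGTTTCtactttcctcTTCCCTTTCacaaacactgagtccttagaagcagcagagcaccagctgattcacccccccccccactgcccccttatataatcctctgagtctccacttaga
B2m: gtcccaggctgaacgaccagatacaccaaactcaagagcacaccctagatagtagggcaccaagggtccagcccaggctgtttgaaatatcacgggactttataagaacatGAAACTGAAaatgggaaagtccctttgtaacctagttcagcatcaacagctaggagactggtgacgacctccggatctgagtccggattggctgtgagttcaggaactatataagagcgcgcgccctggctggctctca

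Fat genes held the largest measured difference and the largest bound. All 10 adipocyte genes were at least 2-fold and 9 at least 4-fold higher (median difference 7.59). Cfd (adipsin) was not above background at P0 and had a level of 6.27 in the transplant, at least 4990.2-fold higher. The hormone Adipoq was at least 962-fold (3.89 in the transplant), the lipid droplet protein Cidec at least 664-fold, Retn (resistin) 273-fold (-4.71 and 3.38) and Plin1 228-fold higher (-5.75 and 2.08). Genes of brown fat, which burns lipid for heat, were higher in 5 of 7 cases and lower in the other 2, the regulators Ppargc1a (2.69-fold) and Prdm16 (2.06-fold). Cox8b had levels of -5.24 and 5.27, 1454-fold higher and the largest difference measured on both arrays, Cidea was 737-fold higher (-4.28 and 5.25) and the uncoupling protein Ucp1 at least 1185-fold higher (4.20). Car3, Thrsp, Mrap, Slc36a2 and Plin4, also genes of fat, were 145-fold to 813-fold higher, and Adig at least 365-fold.

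The summed linear signal of the adipocyte list was 36.8 at P0 and 228 in the transplant, and that of the brown fat list 5.10 and 115. Of the adipocyte genes 6 of 10 were above background at P0, and Fabp4, which endothelium also expresses, was already at 5.03 there. Ucp1, Adipoq and Cfd were not above background on any of the 3 kidney arrays. How far fat tissue accounts for the levels of genes that it shares with the kidney, such as Pck1, Cyp2e1 and Ppara, was not tested.

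Markers of further cell types were higher too. Of 9 glia genes 7 were at least 4-fold higher, and 6 were above background at P0 and 9 in the transplant, with summed signals of 5.08 and 29.1. They included S100b at -5.40 and 3.26 (403-fold), which fat cells also express, Gfap, the filament of astrocytes, at least 268-fold higher (2.05 in the transplant), Olig1 at least 37.8-fold and Sox10 5.61-fold higher. The myelin gene Mbp was within 2-fold. Mlc1, an astrocyte membrane protein, was 156-fold higher (-5.61 and 1.67). Of 6 genes expressed in the leptomeninges, the covering of the brain, 4 were higher. Zic1 was at least 637-fold (3.30 in the transplant, with probes from 2.57 to 11.12), Slc13a4 72.6-fold (-4.17 and 2.01) and Ptgds 53.6-fold higher (0.05 and 5.79), while Slc6a13 was 6.41-fold lower.

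Bone and cartilage genes were higher in 6 of 11 cases and lower in 2. The osteoblast proteins Bglap (osteocalcin) and Ibsp were 71.3-fold (-5.40 and 0.76) and at least 94.6-fold higher (0.55), and Dmp1, of osteocytes, at least 7.84-fold higher. Of the cartilage genes in this list, Acan was 4.47-fold and Col10a1 at least 5.71-fold higher, and Col2a1, among the 2 lower ones, had a log2 difference of -2.85. Neuron genes were higher in 3 of 7 cases, beside 15.4% of all genes, with Syt1 6.83-fold higher. The adrenal cortex genes compared were all within 2-fold, and Star, which carries cholesterol into mitochondria, had levels of -5.58 and -6.15. Genes of the urothelium, the lining of the urinary tract, and of squamous epithelium, in 1 list, were lower in 8 of 9 cases (median -1.72). Upk2 was at least 49.6-fold (-0.56 at P0) and Upk3a 10.1-fold lower, and Upk1a had levels of 1.52 and -2.23. Red blood cell genes were within 2-fold in 5 of 6 cases, with the globin Hba-a1 at 6.25 and 6.20, and skeletal muscle genes in 5 of 7. Lymphatic vessel genes were higher in 2 of 5 cases and lower in none. Of 5 adrenal medulla genes 2 were higher and 1 lower, and of 4 choroid plexus genes 1 was higher and 2 lower (Folr1 5.10-fold, Clic6 4.52-fold), beside 15.4% and 11.8% of all genes. Mast cell genes were lower in 2 of 5 cases, beside 11.8% of all genes, and immediate early genes were within 2-fold in 6 of 7. The part of these cell types in the differences above was not tested.

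**Figure D4:**
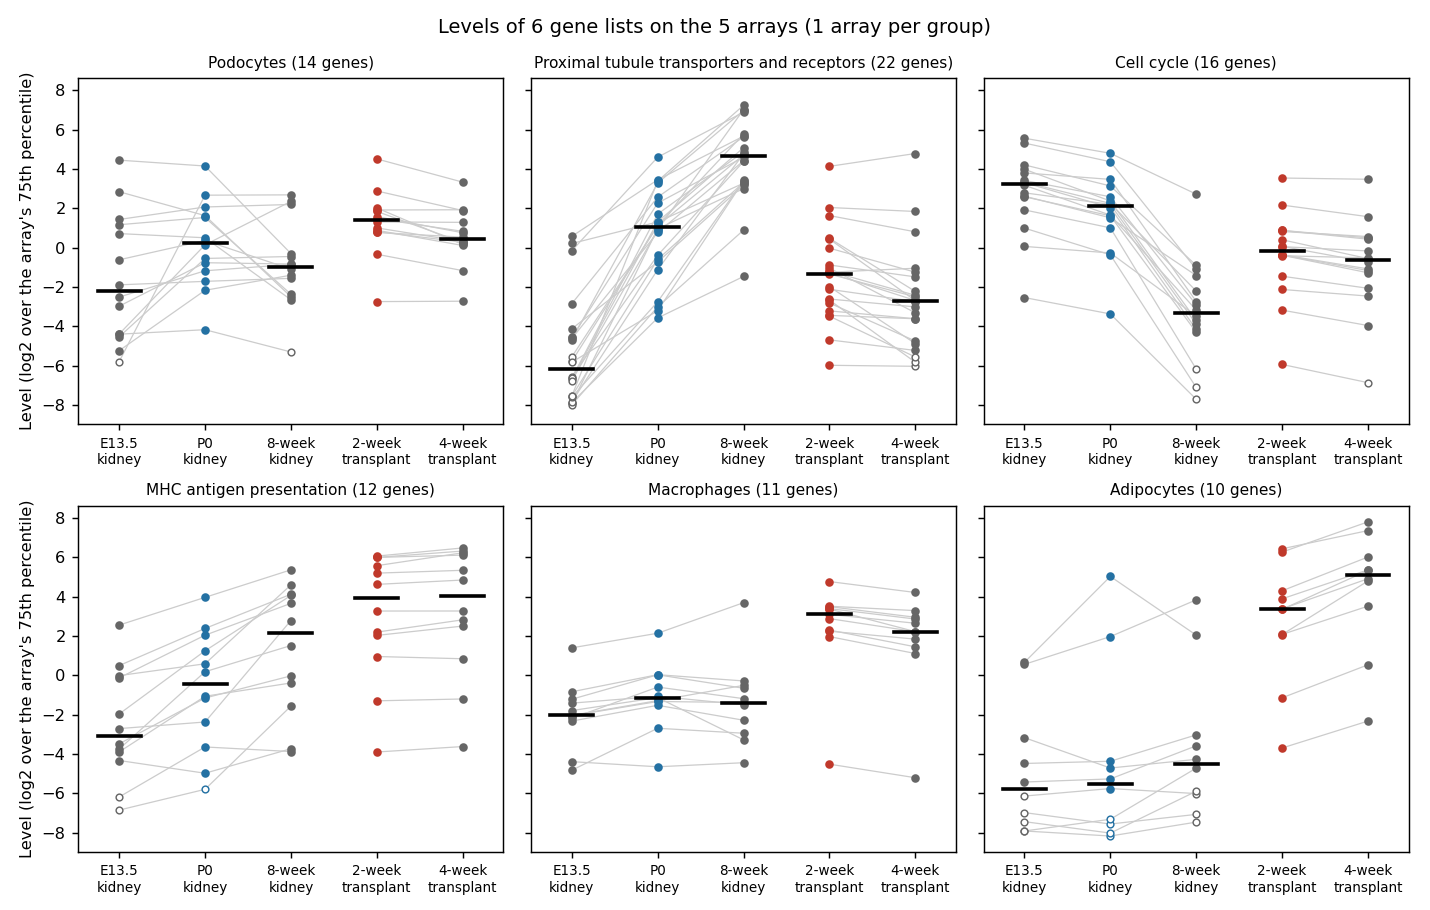
Level (log2 over the array's 75th percentile, y axis) of the compared members of 6 gene lists on the 5 arrays (x axis), with 1 dot per gene, open where not above background, thin lines joining a gene and black bars at list medians. The P0 kidney is blue and the 2-week transplant red. The proximal tubule median was 1.04 at P0 and -1.31 in the transplant, and the adipocyte median -5.51 and 3.37.

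Injury, oxygen and energy genes gave a mixed picture. Havcr1 (Kim-1), made by injured proximal tubule, had levels of -5.46 and -5.34, and Lcn2, of injured distal nephron and of neutrophils, was 1.95-fold higher. Spp1 (osteopontin), Vcam1 and Clu were 5.21-fold, 3.51-fold and 3.17-fold higher, and the epithelial keratins Krt8 and Krt18 2.70-fold and 3.18-fold lower. Of 12 hypoxia and glycolysis genes 7 were lower and none higher (median -1.03), with Ankrd37 7.83-fold and the oxygen sensor Egln3 4.14-fold lower, Pgk1 3.54-fold and Slc2a1 3.03-fold lower, and Vegfa within 1.05-fold. Of 13 respiratory chain genes 12 were within 2-fold (median -0.31, or 0.19 after quantile normalization), and of 12 fatty acid oxidation genes 9 were.

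The largest decrease measured on both arrays was not in a nephron list. Syt10, a synaptotagmin, had levels of 2.31 at P0 and -5.49 in the transplant, 223-fold lower, and the long RNA Mirg had levels of 2.44 and -3.91, 81.5-fold lower, although its 3 probes did not have the same sign. Defb19 (at least 83.9-fold), Hsd17b2 (at least 53.4-fold), Ldc1 (at least 48.4-fold) and Acmsd (at least 47.0-fold lower) were above background at P0 only. Syt10 and Mirg were low on the 2-week transplant array and on none of the other 4, and whether their probes or the source animals differ was not tested. Hoxd12, a limb and urogenital patterning gene, was at least 19.4-fold lower.

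The 4-week transplant lay on the slide of the P0 kidney and was set against the same P0 array, so both comparisons share it. The list medians stood side by side as follows. For podocytes they were 1.32 at 2 weeks and 0.77 at 4 weeks, for proximal tubule transporters -2.18 and -3.91 and for its enzymes -2.59 and -4.08. Cell cycle genes had -2.17 and -2.75, with all 16 lower in each case, and antigen presentation genes 3.44 and 3.85, with all 12 higher. Macrophage genes had 3.57 and 2.97, adipocyte genes 7.59 and 9.45 and interferon response genes 1.70 and 1.91.

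Some lists differed between the graft arrays in direction. The median of the urothelium and squamous epithelium list was -1.72 at 2 weeks and 2.77 at 4 weeks, where Upk2 was 2.66 log2 units above P0. The adrenal cortex median was -0.45 and 7.33, with Star 10.05 log2 units above P0 at 4 weeks. Gdnf and Cited1 had differences of -6.73 and -6.23 at 2 weeks and -6.76 and -7.27 at 4 weeks. Syt10 was -7.80 at 2 weeks and -0.81 at 4 weeks. These are single arrays on different slides, and no difference between them was tested.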

How the data were processed

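RNA of 5 mouse tissues, 1 array each, was labelled with Cy3 and hybridised to one-colour Agilent arrays. The groups come from the sample titles. The members and gene lists were chosen with earlier results of these data known.

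The deposited scanner files hold a processed intensity for every spot, from which background and spatial trend were taken off (Agilent Feature Extraction 10.7.3.1, per the submitters' processing notes). They also mark spots above background and outlier spots. No spot was saturated, and 447 of 43020 spots other than controls were left out as outliers on any array. The authors' deposited gene table holds log2 values centred per gene. Its title line names a percentile shift, but 99.6% of its values were within 0.01 of log2 signals without one, and 18.2% with it. The table gave probe names, updated through RefSeq, and was otherwise used as an alternative.

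Levels were log2 intensity minus that of the array's 75th percentile (1720.1 for P0, 1713.4 for the transplant). The percent of spots above background was 65.7 and 69.1. Replicate spots were averaged. Each gene is represented by its brightest probe over the 5 arrays, unless that was dim on both arrays compared (39 genes). For a bound, the dim level was raised to the lowest one above background where it lay under that. Of 5250 genes with several probes above background, 46 had probes 2-fold apart in opposite directions. The array grid is on another build than the RefSeq sequences, so genes are given by name. The 48 lists hold 514 genes, 511 of them on the array, and 369 of these have a RefSeq promoter. The sex list is not plotted. Named genes are the 15 largest differences each way among genes measured on both arrays, the 10 largest bounds each way, gene-model names left out, and any list member. Some list members are counted but not reported here by name.

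Alternatives were normexp background correction (offset 50, limma 3.58.1 in R 4.3.3), normexp with negative controls, the mean over probes, the authors' table, quantile normalization, other filters, 2-fold and 8-fold thresholds and, added after seeing the data, scaling on 10 spike-in probes. The steps were tested on simulated data. With 1 array per group, the number of arrays limits the precision.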

Additional observations from a re-analysis of the deposited data

Results flagged for a closer look

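Probes without a gene name entered no comparison above. Of 5588, 2900 were well above background on either array, and 90 of these were at least 4-fold higher in the 2-week transplant and 78 at least 4-fold lower. Both are smaller shares than the 6.84% and 3.38% of the 18361 named genes, although probes are counted here and genes there. The largest differences were A_55_P2025655, with a level of -4.96 at P0 and 1.91 in the transplant, and A_55_P2045916 (-4.92 and 0.93). What these probes measure was not tested.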

How the results depend on the processing

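The 1256 higher and 620 lower genes became 755 and 332 with normexp background correction, 824 and 372 with negative controls, 2832 and 2170 at a 2-fold and 597 and 204 at an 8-fold threshold. Under the other alternatives both counts stayed within 1.5 times. Of the 48 list medians 9 changed sign in some setting. That of the X and Y list went from 4.61 to -0.67 with genes above background on both arrays, since 1 gene (Xist) remained. The others were at most 0.31 from 0: 4 turned with spike-in scaling, 3 with quantile normalization and 1 (mast cells) with genes above background on both arrays. Xaf1 turned from 2.47 to -0.50 in the authors' table and to -1.34 over its probes. With genes above background on both arrays the adipocyte median was 5.28, that of brown fat 2.74 and of leptomeninges 1.48. With normexp the adipocyte median was 5.98, that of brown fat 3.75, of bone and cartilage 1.08 and of fetal growth genes -1.09. For genes lower at 8 weeks than at E13.5 it was -0.04, where normexp estimated a mean background of -992 for E13.5 and of 20.7 to 27.5 for the remaining arrays. P0 was the closest kidney under each setting run. No paired analysis was possible because each group holds 1 array. Levels near background (-6.02 at P0, -6.19 in the transplant) limit the bounds.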

Other observations

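On some genes the 2-week transplant stood apart from all 4 other arrays. With an 8-fold gap, chosen after the values were seen, 20 of the 18361 genes compared lay above them and 5 below. Among those above were Gfap, Bglap, Bglap2, Bglap3 and Ibsp, of glia and bone, Gpr17 and Scrg1, of oligodendrocytes and cartilage, and the adhesion protein Cntn6. Only 13 of the 20 have gene names, and the rest are gene models. The other named ones were Vxn, Pla2g4e, Lect2 and the olfactory receptors Olfr952 and Olfr77, so the 20 do not form a single cell type. Gfap was at 2.05 in the 2-week and -2.18 in the 4-week transplant and not above background in the kidneys. Ibsp was at 0.55 and -3.21 in the transplants and not above background in the kidneys, and Gpr17 at 0.82 against at most -3.24 elsewhere. Bglap, Bglap2 and Bglap3 are near-identical neighbours, so their probes may not tell them apart.

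The genes below were Syt10, Mirg, Tox4, Hsd3b6 and a gene model. Syt10 was at -5.49 in the 2-week transplant and between 1.49 and 3.92 on the other arrays. Tox4, a widely expressed nuclear protein, was at 2.38 to 3.47 on the other arrays and 10.4-fold below the lowest of them here (a second probe differed from P0 by -0.15), and Hsd3b6, a steroid enzyme with close paralogs, was not above background against -2.41 to 1.98. Whether probes or source animals differ was not tested.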
